A study of Mus musculus with 120 samples.

Results

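Insulin receptor signalling was followed through 10 genes: Insr, Irs1, Irs2, Pik3r1, Pik3ca, Akt1, Akt2, Foxo1, Foxo3 and Grb10. Every probe set (a group of short probes reporting on one transcript) whose platform annotation gave one of these symbols alone was taken. The choice gave 32 of 45037 probe sets, 23 on the MOE430A array and 9 on the MOE430B array. The livers came from 60 F2 mice of a C57BL/6J x BTBR intercross, 31 females and 29 males, and all of them were leptin-deficient (ob/ob), so no lean or leptin-sufficient animal entered any comparison. The 60 were picked from a larger panel by their genotypes, and the livers were collected at 14 weeks of age after a 4-hour fast, with 1 liver on 1 array of each type. Plasma phenotypes had been measured at 8 and 10 weeks, and genotypes at 194 markers were recorded as A, H (heterozygous) or B. Which founder strain the letters A and B stand for was not stated in the sources used here.

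Insulin binds a receptor tyrosine kinase that phosphorylates the insulin receptor substrate (IRS) proteins, and these recruit phosphatidylinositol 3-kinase (PI3K), whose lipid product brings the kinase AKT to the membrane. In hepatocytes AKT phosphorylates the FOXO transcription factors and so removes them from the nucleus, which lowers the transcription of genes for glucose production, while lipogenic genes are induced. Most of this regulation acts on protein phosphorylation, whereas the arrays measured messenger RNA.

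The promoters of the members were searched for 3 short words, on both strands, in windows of 300 bases (250 before the transcription start and 50 after it) from RefSeq on GRCm38.p6. Windows were found for 9 of the 10 genes, 15 windows in all, and Insr was not searched. TTGTTTTG, a core of the insulin response element that FOXO proteins bind, stood in 2.51% of all 32851 promoter windows, GTAAACA, the forkhead consensus, in 3.65%, and CACGTG, an E box, in 7.15%. Of the members, Irs1 and Irs2 held TTGTTTTG, and the same 2 genes held CACGTG. Akt1 held GTAAACA, 161 bases before the start, where it reads TGTTTAC on the strand of the gene. The stretches that carry these words are printed because both IRS genes share a pair of words that none of the other members searched holds. All are on the minus strand, written 5′ to 3′ along the gene, with the words in capitals, at chr1:82291440-82291559 for Irs1, chr8:11008930-11009049 for Irs2 and chr12:112674972-112675091 for Akt1.
Irs1: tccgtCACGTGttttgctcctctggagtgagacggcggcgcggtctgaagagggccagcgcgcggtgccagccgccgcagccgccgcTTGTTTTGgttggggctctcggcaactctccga
Irs2: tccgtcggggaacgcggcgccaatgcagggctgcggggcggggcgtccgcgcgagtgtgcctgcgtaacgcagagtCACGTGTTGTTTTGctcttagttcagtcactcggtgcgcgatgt
Akt1: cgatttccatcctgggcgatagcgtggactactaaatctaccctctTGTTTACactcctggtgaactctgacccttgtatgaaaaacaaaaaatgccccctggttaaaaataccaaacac
In Irs2 the 2 words abut each other, with TTGTTTTG beginning 38 bases and CACGTG 44 bases before the start. In Irs1 they lie 33 and 115 bases before it. A match is a run of letters and no measurement of binding, and no words overlapped.

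Expression is given as log2 values from RMA (robust multi-array average, the authors' normalization), on which 1 unit is a doubling. Levels of different probe sets are not compared, since each has its own probes. The livers carried their defining transcripts, with Alb (albumin, 1425260_at) between 13.71 and 14.4, while the fat hormone Lep (1422582_at) lay between 5.94 and 6.37. The arrays stood apart in 6 mice by their correlation with the other arrays, and in mice 223, 474 and 608 the A array was nearest to the B array of another mouse. In 5 mice, 4 recorded as female and 1 as male, the level of the X-inactivation transcript Xist went against the recorded sex. The main results by sex are given with and without those 5 mice. The first principal component, the axis along which the arrays differed most, held 20.4% of the variance on MOE430A and 16.5% on MOE430B.

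Across the 32 probe sets the standard deviation over mice ran between 0.074 and 0.535 log2 units, with a median of 0.178, against a median of 0.123 over all probe sets. The SD of 20 of the 32 exceeded that overall median. The highest mouse stood 1.3-fold to 5.43-fold above the lowest, with a median of 1.88-fold.

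At the receptor, Insr (the insulin receptor itself) had a main probe set, 1450225_at, with values of 7.29, 7.49 and 7.67 at the lowest, median and highest mouse. The main probe set of a gene is its MOE430A probe set with the highest mean. Insr varied little here, with only 12.3% of all probe sets having a smaller SD. A second Insr probe set, 1434446_at on MOE430B, ran from 7.42 through 8.16 to 8.88, a 2.75-fold range, and its r with the first principal component was 0.86. The 2 Insr probe sets had an r of 0.02 with each other, so they did not rank the mice alike. Grb10, an adaptor that binds the receptor and inhibits it, had values of 7.35, 7.8 and 8.07 for 1425458_a_at. A Grb10 probe set with the suffix _a_at reports on alternative transcripts of the gene, and 1425458_a_at and 1430164_a_at had an r of -0.01.

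Of the receptor substrates, Irs1 (1423104_at) had values of 7.18, 7.85 and 8.24, a 2.08-fold range. Irs2 (1443969_at) had values of 6.61, 6.83 and 7.03, a 1.34-fold range. Each gene was measured by 1 probe set. Irs1 had an SD larger than that of 89.3% of all probe sets, and Irs2 one larger than that of 36.1%.

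Pik3r1, which encodes the regulatory subunit p85 alpha of PI3K, held the widest range of all members. Its probe set 1425514_at ran from 5.88 through 7.5 to 8.32, and its SD was larger than that of 99.2% of all probe sets. The main Pik3r1 probe set, 1451737_at, had values of 7.53, 7.85 and 8.49. The 4 Pik3r1 probe sets, of both array types, had r values of 0.66 to 0.81 with each other and so ranked the mice alike. The catalytic subunit p110 alpha, Pik3ca, had values of 7.05, 7.42 and 7.62 for its main probe set 1423144_at. The 6 Pik3ca probe sets were less uniform, with r values between -0.21 and 0.76 over 15 pairs.

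Of the AKT kinases, Akt1 (1416657_at) had values of 7.61, 7.94 and 8.77, and Akt2 (1424480_s_at), the isoform that is best known for insulin action in liver, had values of 8.78, 9.09 and 9.65. Mouse 167, a male and among the 6 with an array apart, had the highest value of both. The suffix _s_at marks probes shared by several transcripts. The 4 Akt1 probe sets had r values between 0.03 and 0.43 with each other, and the 3 Akt2 probe sets between -0.09 and 0.57.

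The FOXO factors are the nuclear end of the pathway. Foxo1 (1416983_s_at) had values of 7.85, 8.46 and 8.93, and Foxo3 (1434831_a_at) had values of 7.7, 8.09 and 8.61. Probe sets of 1 FOXO gene did not always move together. Foxo1 1416983_s_at had an r of 0.77 with 1416982_at and of -0.25 with 1456529_at, and Foxo3 1434831_a_at had an r of 0.7 with 1434832_at and of 0.03 with 1450236_at. What is said of a gene below is therefore said of the probe set named.

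A further 8 member probe sets were Insr 1421380_at, Pik3ca 1460326_at, 1440054_at, 1429435_x_at and 1453134_at, Akt1 1425711_a_at, Akt2 1455703_at and Grb10 1425457_a_at. Pik3ca 1429435_x_at had the widest range of these, with values of 3.34, 4.01 and 4.77. Akt1 1425711_a_at ran from 5.9 through 6.38 to 7.04, and Insr 1421380_at from 5.47 through 5.73 to 5.97. None of the 8 had an unadjusted p under 0.05 for insulin at 10 weeks.

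**Figure D1:**
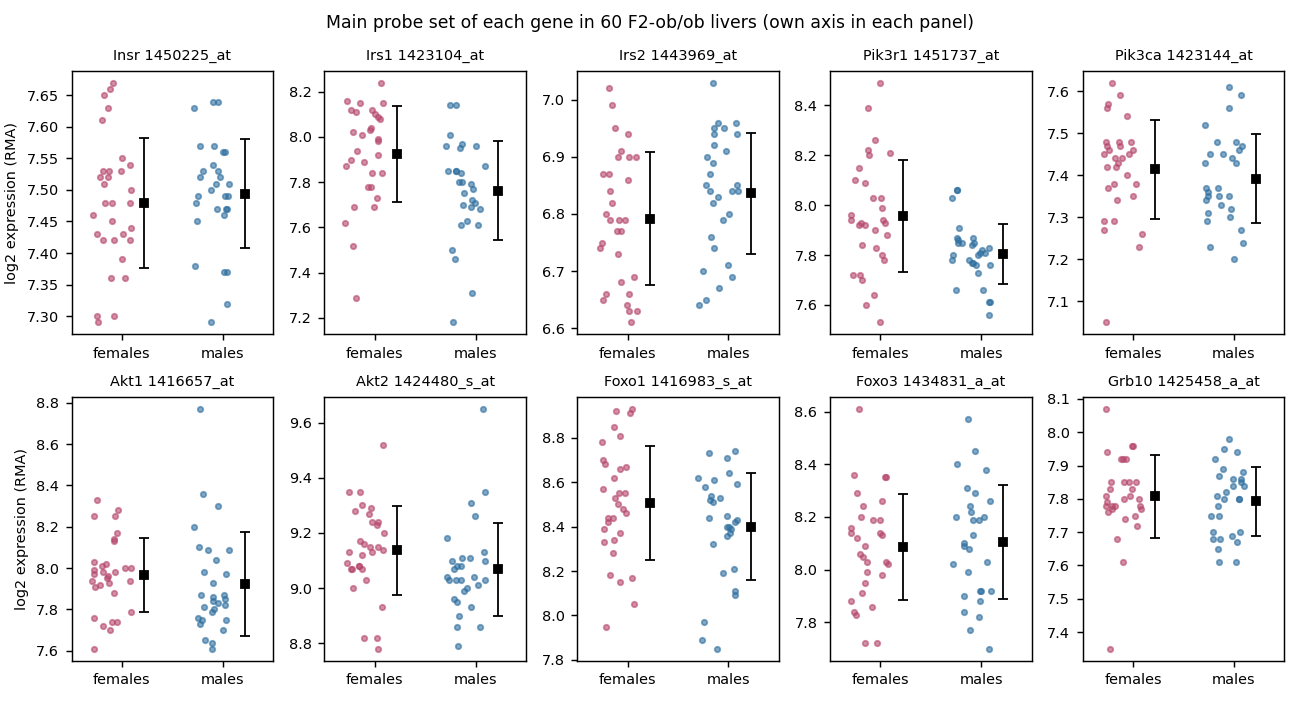
Log2 expression (vertical axis, its own scale in each panel) of the main probe set of each of the 10 genes in 31 females (left) and 29 males (right), 1 point per mouse, with the mean and SD as black squares and bars. The 2 sexes overlapped for every gene, and the highest point of Akt1 (8.77) and of Akt2 (9.65) is the same male.

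The first question was whether these transcripts followed the insulin measured in plasma at 10 weeks, before the livers were collected at 14 weeks. Fasting insulin at 10 weeks was known for 57 mice, with values of 2.8, 31.7 and 104 ng/ml at the lowest, median and highest mouse, a 37.1-fold range. The median was 35.9 ng/ml in 29 females and 27.2 ng/ml in 28 males. Mice with more insulin had less plasma glucose at 10 weeks (r = -0.58, permutation p = 2e-05, rho = -0.48, permutation p = 0.00018, n = 57). Leaving out the 2 mice with log10 insulin farthest from its median, which were those with the least insulin (2.8 and 2.9 ng/ml), gave r = -0.55. In the linear fit of each probe set on log10 insulin (limma, p-values adjusted over all 45037 probe sets by Benjamini-Hochberg, threshold 0.05), 6 probe sets passed, 0.0133% of all, and 0 of the 32 members were among them. At an unadjusted p under 0.05 stood 4 members, or 12.5% of them, against 7.33% of all probe sets.

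Insr 1450225_at had a slope of -0.01 log2 units for 10-fold more insulin (SE 0.0305, 95% interval -0.07 to 0.05, adjusted p = 0.972). Its level was 7.53 in the mouse with the least insulin and 7.48 in the mouse with the most. Irs1 had a slope of 0.02 (-0.12 to 0.16), and Irs2, which FOXO1 is known to induce, had a slope of -0.02 (-0.09 to 0.05). The intervals of these 3 probe sets therefore leave room for a change of at most 1.12-fold in either direction for 10-fold more insulin. That of Insr 1434446_at was wider, at -0.25 to 0.2, or 0.839-fold to 1.15-fold. Foxo1 1416983_s_at had a slope of -0.02 (-0.17 to 0.13), Akt2 1424480_s_at one of -0.03 (-0.14 to 0.07), and Grb10 1425458_a_at one of 0.02 (-0.05 to 0.09). Over the members, 28 of the 32 intervals lay within 0.25 log2 units of zero.

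Pik3r1 had the largest slopes. For 1425514_at the level was 5.88 in the mouse with the least insulin and 7.99 in that with the most, and the slope was 0.35 (0.04 to 0.66, unadjusted p = 0.0274, adjusted p = 0.588 by limma), which is 1.27-fold for 10-fold more insulin. Its r was 0.28 (permutation p = 0.0335) and its rho 0.12 (permutation p = 0.364). Leaving out the 2 mice with the least insulin gave r = 0.09, so the relation rested on them. For 1438682_at the slope was 0.2 (0.03 to 0.37, adjusted p = 0.553), with r = 0.3 (permutation p = 0.0258), rho = 0.2 (permutation p = 0.131) and r = 0.17 without the same 2 mice of lowest insulin. The other 2 members past the unadjusted threshold were both probe sets of Akt1 and ran in opposite directions. Akt1 1442759_at had r = 0.27 (permutation p = 0.0422) and rho = 0.28 (permutation p = 0.0397), and Akt1 1440950_at had r = -0.28 (permutation p = 0.0342) and rho = -0.28 (permutation p = 0.0343), with adjusted p-values of 0.649 and 0.669.

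**Figure D2:**
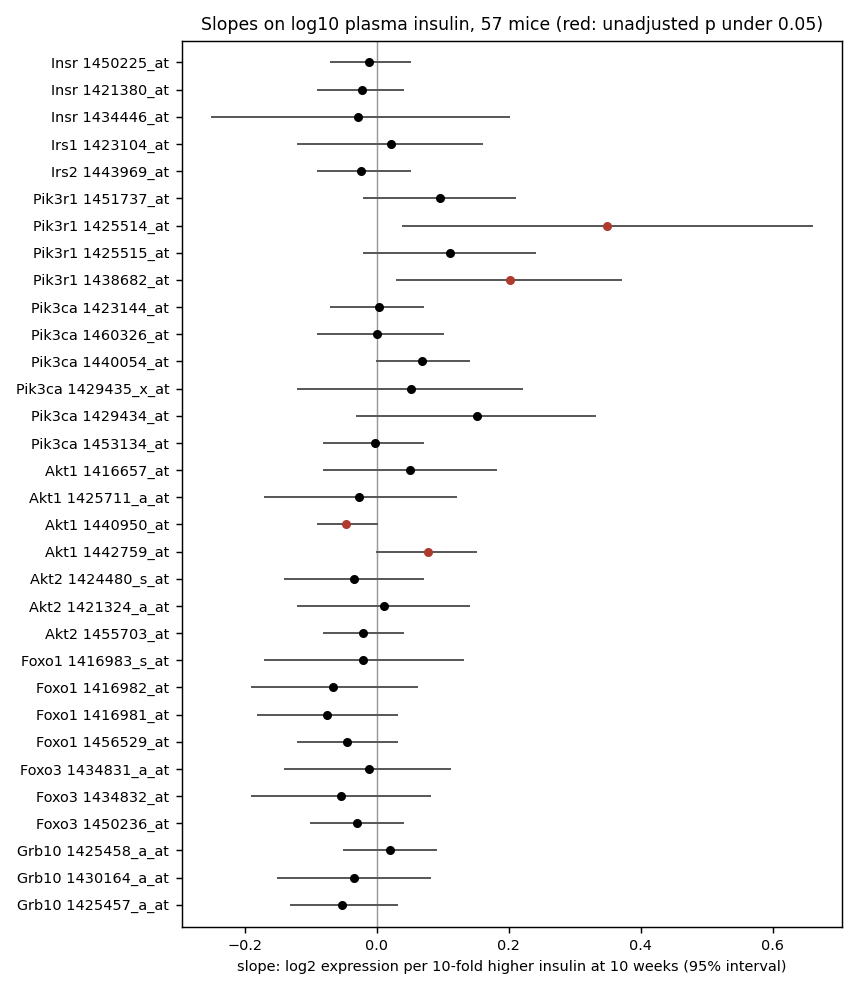
Slope of log2 expression for 10-fold higher plasma insulin at 10 weeks (horizontal axis) with its 95% interval for each of the 32 probe sets in 57 mice, red where the unadjusted p was under 0.05. Intervals of 28 probe sets lie within 0.25 of zero, and the widest, that of Pik3r1 1425514_at, runs between 0.04 and 0.66.

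The slope was also compared between the sexes. Of the 32 members, 17 had slopes of opposite sign in females and males, and the lowest adjusted p of the difference was 0.912 (limma interaction, 0.0% of all probe sets called). At an unadjusted p under 0.05 stood 1 member, against 5.46% of all probe sets. It was Akt2 1424480_s_at, with an r of -0.49 in 29 females and of 0.06 in 28 males, a difference in slope of -0.26 (95% interval -0.48 to -0.04, unadjusted p = 0.0192). Without the mice whose Xist level went against the record, r was -0.53 in females and 0.07 in males.

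Genes downstream of the pathway were tested on insulin in the same 57 mice. Of 29 probe sets of 13 measured genes known to be induced by insulin, 22 had an unadjusted p under 0.05 and 0 passed the adjusted threshold, with a median t of 2.97 against -0.1 for all probe sets and -0.22 for the members. Fasn (fatty acid synthase, 1423828_at) ran from 8.63 through 11.04 to 12 and had a slope of 0.9 (r = 0.54, adjusted p = 0.0512), and Gpam (the mitochondrial acyltransferase that starts glycerolipid synthesis, 1419499_at) had a slope of 0.67 (adjusted p = 0.054). Of 37 probe sets of 18 genes that FOXO1 is known to induce, 15 had an unadjusted p under 0.05, with a median t of -1.01. Tat (tyrosine aminotransferase, 1451557_at) had a slope of -0.56 (adjusted p = 0.058) and Ppargc1a (a coactivator of gluconeogenic transcription, 1460336_at) one of -0.24 (adjusted p = 0.13). These 4 genes missed the threshold by less than any member did. They were named for having the 2 largest absolute t of each list, so the choice itself favours that comparison. Of the upstream genes outside the members, 0 of 45 probe sets of other receptor and adaptor genes, 2 of 65 of other PI3K and AKT genes and 5 of 62 of negative regulators had an unadjusted p under 0.05, and none passed the adjusted threshold. Hepatocyte markers, chosen outside the pathway, had 10 of 20 probe sets at an unadjusted p under 0.05, with a median t of -0.18, and 1 passed. A high count was thus not particular to the downstream lists.

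**Figure D3:**
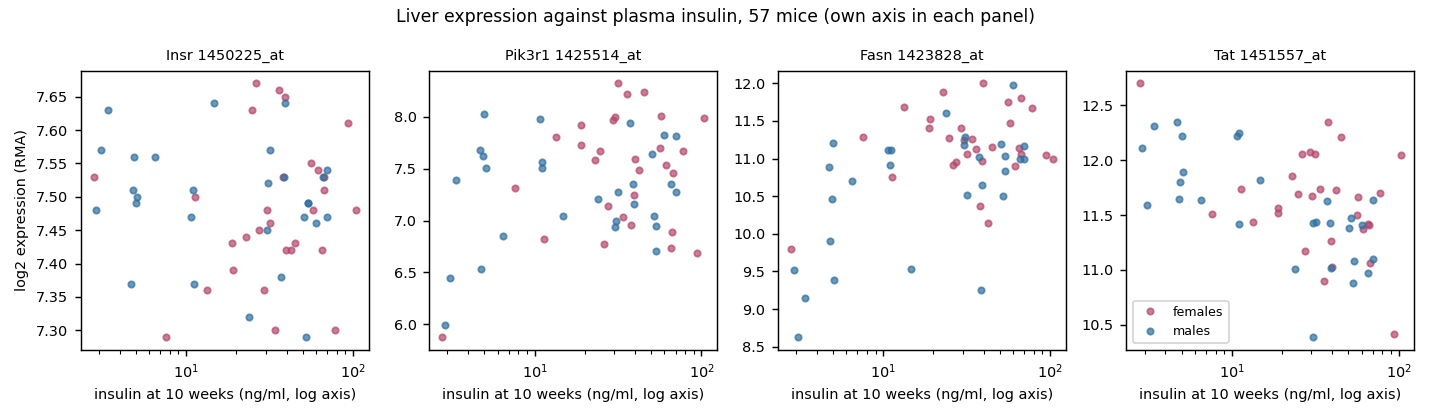
Log2 expression (vertical axes, own scale in each panel) against plasma insulin at 10 weeks (ng/ml, log axis) in 57 mice, females and males by colour. Insr shows no slope (r = -0.05), Pik3r1 1425514_at is low in the mice with the least insulin (r = 0.28), Fasn rises with insulin (r = 0.54, adjusted p = 0.0512) and Tat falls with it (r = -0.52, adjusted p = 0.058).

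The other phenotypes were tested in the same way, for 8 phenotypes in 51 to 60 mice each. No member passed the adjusted threshold for any of them (limma). The share of all probe sets that passed was 0.0244% for glucose at 10 weeks, 0.00222% for plasma triglyceride at 8 weeks, 0.235% for liver triglyceride and 0.0% for the other 5. At an unadjusted p under 0.05 stood 5 members for glucose at 10 weeks (15.6% of members, against 9.49% of all), 7 for body weight at 10 weeks (against 7.68% of all probe sets), 5 for triglyceride at 10 weeks (against 6.24%), 4 for triglyceride at 8 weeks (against 7.21%) and 4 for liver triglyceride (against 9.79%). The count was 0 for insulin, glucose and body weight at 8 weeks, against 3.75%, 5.65% and 4.27% of all probe sets. Glucose at 10 weeks had a median of 299 mg/dl in females and 418 mg/dl in males, and allowing for sex left 1 member for glucose, 2 for body weight, 1 for triglyceride at 10 weeks, 2 for triglyceride at 8 weeks and 4 for liver triglyceride. The share of all probe sets was then 4.65% for glucose, 5.55% for body weight, and 4.58% and 5.77% for triglyceride at 10 and 8 weeks. It thus fell over all probe sets too. The lowest p belonged to Akt1 1442759_at with liver triglyceride (r = 0.35, permutation p = 0.00696, rho = 0.2, permutation p = 0.119, adjusted p = 0.273), and r was 0.13 once the 2 most extreme mice were left out. Of the 4 Pik3r1 probe sets, 3 had a negative r with triglyceride at both ages (unadjusted p under 0.05 each), for example -0.33 for 1451737_at at 10 weeks (unadjusted p = 0.0106, adjusted p = 0.72). Triglyceride at 10 weeks had a median of 94.1 mg/dl in females and 121 mg/dl in males. Since allowing for sex left 1 member at that age, at most 1 of these 3 stayed under 0.05 there.

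Females and males were compared over 31 and 29 mice. Of all probe sets, 651 passed (1.45%), 466 of them (1.03%) higher in females, and 1 of the 32 members was among them. That member was Pik3r1 1425515_at, with values of 6.11, 6.63 and 7.14 in females and 6.09, 6.42 and 6.8 in males. Its mean was 6.6 ± 0.234 in females and 6.4 ± 0.162 in males (SD, n = 31 and n = 29), a difference of 0.2 (95% interval 0.1 to 0.3, 1.15-fold, adjusted p = 0.0287 by limma). The ranges overlapped over most of their length. Without the 5 mice whose Xist level went against the record the difference was 0.19 (adjusted p = 0.0515), and after allowing for the first principal component it was 0.11 (adjusted p = 0.362), so the call did not outlast either change.

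At an unadjusted p under 0.05 stood 9 members, 28.1% of them against 16% of all probe sets, 7 higher and 2 lower in females. The other Pik3r1 probe sets with that mark were 1438682_at at 0.21 (adjusted p = 0.118) and 1451737_at at 0.15 (adjusted p = 0.076). Irs1 averaged 7.93 ± 0.213 in females and 7.76 ± 0.218 in males (SD, n = 31 and n = 29), a difference of 0.16 (adjusted p = 0.107). The inhibitor Grb10 was measured lower in females by 1430164_a_at, with means of 6.36 in females and 6.49 in males and a difference of -0.13 (adjusted p = 0.135). Insr 1450225_at differed by -0.01 (95% interval -0.06 to 0.04) and Foxo3 1434831_a_at by -0.02 (-0.12 to 0.09). Without the 5 mice whose Xist level went against the record, Irs1 differed by 0.17 (adjusted p = 0.124), Pik3r1 1451737_at by 0.15 (0.0877), Grb10 1430164_a_at by -0.14 (0.135) and Insr 1450225_at by -0.01 (0.835). Without the 6 mice that had an array apart, 1897 probe sets passed (4.21% of all), and 6 members were among them, all higher in females, with Pik3r1 1425515_at at 0.24 (adjusted p = 0.00234), Pik3r1 1451737_at at 0.17 (0.0168), Irs1 at 0.18 (0.0274), Foxo1 1416982_at at 0.18 (0.0232), Akt2 1421324_a_at at 0.17 (0.026) and Pik3r1 1438682_at at 0.25 (0.0283).

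Of the insulin-induced genes, 7 of 29 probe sets passed, all higher in females, and they belonged to Me1, Pklr, Acly and Gpam, which supply or use the substrates of lipid synthesis. Me1 1430307_a_at differed by 0.61 (adjusted p = 0.00213). Of these 7 probe sets, 6 still passed without the 5 mice whose Xist level went against the record, and 0 did after allowing for the first principal component. Of the remaining pathway genes, Igf1r (the receptor of insulin-like growth factor 1) fell by 0.1 in females, and Eif4ebp2 (an inhibitor of translation initiation under mTOR, 0.19), Ptprf (a receptor phosphatase, 0.2), Mttp (which loads lipid onto apolipoprotein B, 0.27) and Ccng2 (a cyclin induced by FOXO factors, 0.16) rose. That was 1 of 45 probe sets of other receptor and adaptor genes and 1 of 65 of other PI3K and AKT genes. Negative regulators had 1 of 62, and FOXO1-induced genes 2 of 37, against 1.45% of all probe sets. Calls this few are no result about the lists. Igf1r did not pass without those 5 mice (adjusted p = 0.0851), whereas the other 4 did, and none of the 5 genes passed after allowing for the first principal component. Of the cell type markers, 1 of 20 hepatocyte probe sets passed, of Hnf4a (a hepatocyte transcription factor, 0.31 higher in females). Of 17 lymphocyte probe sets 1 passed, of Ighm (the heavy chain of immunoglobulin M, 0.37 higher in females). The median t was 0.69 over the hepatocyte list and -0.52 over the lymphocyte list, against -0.17 for all probe sets. Without those 5 mice Ighm passed and Hnf4a did not (adjusted p = 0.0836), and neither did after allowing for the first principal component.

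Genotype was addressed by a genome scan at 545 test points on 19 autosomes. The LOD score compares the likelihood of a locus affecting the trait with that of none, on a log10 scale. At a LOD of at least 3.4, 7131 probe sets passed (15.8%), and 5 of the 32 members did, which is 15.6%. The median of the highest LOD was 2.56 over the members and 2.62 over all probe sets. At a LOD of 5 or more stood 2.1% of all probe sets and 0 members. In simulated traits without any locus, 10.6% reached 3.4, so a share near the background is no result about the members.

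The 5 probe sets were these. Pik3r1 1451737_at had a LOD of 4.24 on chromosome 4 at 15 cM, with means of 8.03 ± 0.234, 7.85 ± 0.137 and 7.78 ± 0.136 in 18 A, 25 H and 17 B mice (SD). Foxo3 1450236_at had a LOD of 4.14 on chromosome 2 at 30 cM, where heterozygotes were lowest, with means of 6.54 ± 0.118, 6.42 ± 0.119 and 6.54 ± 0.078 in 13 A, 25 H and 22 B mice. Foxo1 1416981_at had a LOD of 3.78 on chromosome 13 at D13Mit16, with means of 7.67 ± 0.152, 7.49 ± 0.086 and 7.46 ± 0.231 in 17 A, 29 H and 14 B mice. Genotype ranges overlapped in each case.

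Akt1 1416657_at had a LOD of 3.52 on chromosome 8 at D8Mit155, with means of 8.04 ± 0.206, 7.82 ± 0.146 and 8.02 ± 0.229 in 20 A, 24 H and 16 B mice. In 4 alternatives the highest LOD of Akt1 lay on chromosome 4 at 22.8 cM instead. It was 3.41 there allowing for sex, 4.24 allowing for the first principal component, 3.53 without the 6 mice that had an array apart and 3.75 without mice 223, 474 and 608. Pik3ca 1429434_at had a LOD of 3.48 on chromosome 15 at D15Mit63, with means of 4.15 ± 0.282, 3.98 ± 0.273 and 3.73 ± 0.228 in 14 A, 32 H and 14 B mice. Its values of 3.34, 3.9 and 4.66 lay low on MOE430B, where array medians were 6.14 to 6.19 and the lowest value was 2.4. Its r was 0.69 with the first principal component and 0.36 with the main Pik3ca probe set. None of the 5 lay on the chromosome of its own gene, while 18.4% of the probe sets at 3.4 with a known autosome did. Allowing for the first principal component, the highest LOD was 2.28 for Pik3r1 1451737_at, 2.83 for Foxo3 1450236_at and 2.84 for Pik3ca 1429434_at, and without mice 223, 474 and 608 it was 5.42 for Foxo1 1416981_at, whose lowest value, 6.73, belonged to mouse 474. In the scan without covariates no other probe set of the same genes reached 3.4, and Insr 1421380_at, at 3.38, lay just below it. Insr 1421380_at stood at 3.77 by Haley-Knott regression and at 3.71 allowing for the first principal component, and in other alternatives Pik3r1 1438682_at (3.6, sex), Pik3ca 1423144_at (3.54, without the arrays apart), Pik3ca 1460326_at (3.55, without mice 223, 474 and 608), Akt2 1421324_a_at (3.65, without the same 3 mice) and Insr 1434446_at (3.47, without the arrays apart) also reached it. The main probe set of Foxo1, for example, had a highest LOD of 1.73, on chromosome 7.

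**Figure D4:**
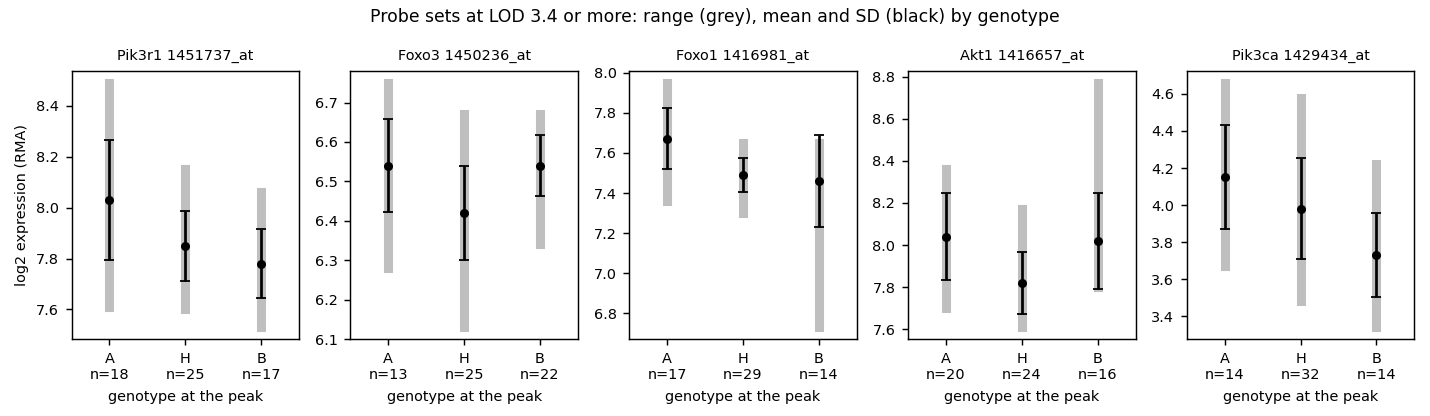
Log2 expression (vertical axes, own scale in each panel) by genotype A, H or B at the highest LOD for the 5 probe sets at 3.4 or more, with the range as a grey bar and the mean and SD in black. Heterozygotes are lowest for Foxo3 (6.42) and Akt1 (7.82), and A mice are highest for Pik3r1 (8.03), Foxo1 (7.67) and Pik3ca (4.15).

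Insulin itself mapped to chromosome 2 at 98.7 cM (LOD 6.79, 57 mice), at the marker D2Mit263, where plasma insulin averaged 12.5 ± 14.8, 38.5 ± 18.5 and 46.3 ± 27.5 ng/ml in 14 A, 23 H and 20 B mice (SD). Grouping the livers by this marker (15 A, 25 H and 20 B mice) called 18 probe sets, 0.04% of all, and 0 members (limma). Grouping them by D5Mit240 on chromosome 5 called 16, 0.0355% of all, and 0 members. At an unadjusted p under 0.05 stood 4 members for each marker, 12.5%, against 8.33% and 8.45% of all probe sets. Insr 1450225_at averaged 7.5, 7.5 and 7.46 in A, H and B mice at D2Mit263 (adjusted p = 0.777), Irs2 averaged 6.81, 6.79 and 6.84 (adjusted p = 0.803), and Akt1 1416657_at averaged 7.92, 7.88 and 8.05 (unadjusted p = 0.0236, adjusted p = 0.543). The A mice, with the least insulin, thus had Insr and Irs2 levels within 1 SD of the others.

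The members were then set against each other. Each main probe set was fitted against all other probe sets, so that each of the 45 pairs of genes was tested in 2 fits. The median absolute r over the pairs was 0.15, and 6 pairs passed in both fits, 4 positive and 2 negative. Akt1 and Akt2 had the highest r, 0.75 (permutation p = 1e-05, rho = 0.7, permutation p = 1e-05, the smallest the resampling can give, adjusted p = 2.77e-08). It was 0.78 in females and 0.74 in males, 0.74 without the 2 farthest mice, 0.75 after the first principal component and 0.6 without the 6 mice with an array apart. No probe sets of Akt1 had an r above 0.43 with each other, and none of Akt2 above 0.57. The r of 0.75 is that of the 2 main probe sets, and r between the other Akt1 and Akt2 probe sets is not given here. Pik3r1 and Pik3ca, the 2 subunits of one enzyme, had an r of 0.54 (permutation p = 2e-05, rho = 0.59, permutation p = 1e-05, adjusted p = 0.000384). Foxo1 and Foxo3 had an r of 0.53 (permutation p = 2e-05, rho = 0.51, permutation p = 6e-05, adjusted p = 0.0104).

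Insr and its inhibitor Grb10 had an r of 0.45 (permutation p = 0.00021, rho = 0.51, permutation p = 2e-05, adjusted p = 0.00311). Pik3ca and Akt1 had an r of -0.37 (permutation p = 0.00346, rho = -0.42, permutation p = 0.00099, adjusted p = 0.0299). Irs2 and Pik3r1 had an r of -0.49 (permutation p = 9e-05, rho = -0.52, permutation p = 3e-05, adjusted p = 0.00233), which was -0.15 after the first principal component (adjusted p = 0.813). With that component 4 of the 6 pairs still passed in both fits, and the second fit of Insr and Grb10 stood at an adjusted p of 0.0539. Without the 6 mice with an array apart, r was 0.41 for Insr and Grb10 and -0.4 for Pik3ca and Akt1. In that setting 0 member probe sets passed against Grb10 and none passed with a negative sign against Akt1, so neither pair passed in both fits. Without mice 223, 474 and 608, 0 passed against Grb10. Insr had r values of -0.19 with Irs1 and 0.24 with Irs2, and Irs1 passed with no other member.

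**Figure D5:**
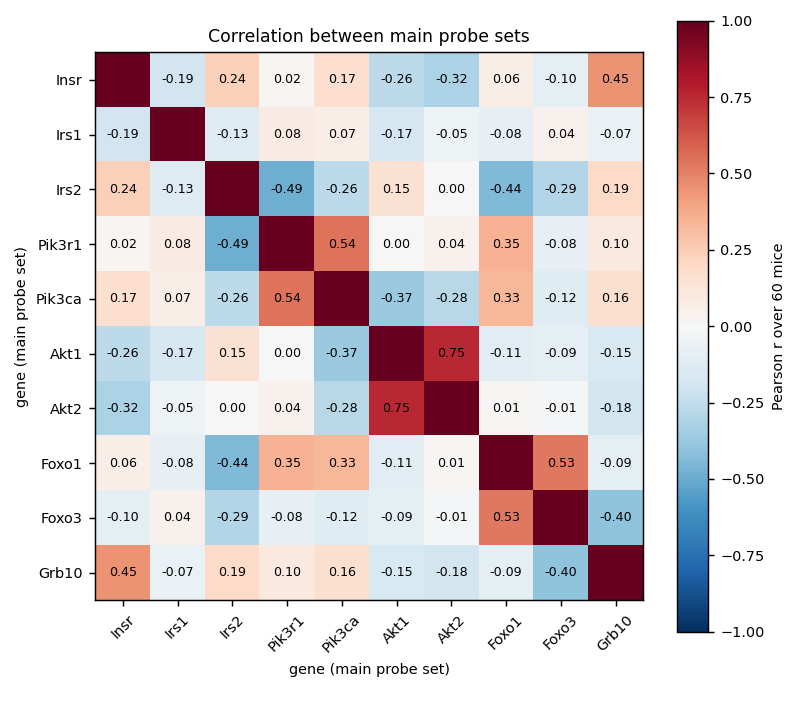
Pearson r over 60 mice between the main probe sets of the 10 genes, red for positive and blue for negative. The strongest cells are Akt1 with Akt2 (0.75), Pik3r1 with Pik3ca (0.54), Foxo1 with Foxo3 (0.53) and Irs2 with Pik3r1 (-0.49).

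These pairs stand in a background of wide correlation. The share of all probe sets that passed against a member was 23.6% for Insr, 2.64% for Irs1, 14.2% for Irs2, 16.7% for Pik3r1, 10.6% for Pik3ca, 9.71% for Akt1, 13.3% for Akt2, 0.253% for Foxo1, 0.278% for Foxo3 and 6.82% for Grb10. Among probe sets of the other members the share was 13.8% for Insr (4 of 29), 35.5% for Irs2 (11 of 31), 28.6% for Pik3r1 (8 of 28), 26.9% for Pik3ca (7 of 26), 24.1% for Akt2 (7 of 29), 21.4% for Akt1 (6 of 28), 10.7% for Foxo1 (3 of 28), 6.9% for Grb10 (2 of 29), 3.45% for Foxo3 (1 of 29) and 0.0% for Irs1 (0 of 31). Once the first principal component was allowed for, 0.0% of all probe sets and 0 members passed against Irs2.

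Levels of cell type markers moved with some members, and their part in these results was not tested. The mean level of 18 hepatocyte marker probe sets (9 of 10 genes measured) ran between 11.73 and 12.13 in females and between 11.74 and 12.04 in males, and had an r of -0.52 with Irs2 and of 0.51 with Pik3r1. That of 17 lymphocyte marker probe sets (6 of 8 genes) ran between 6.37 and 6.72 in females and between 6.42 and 6.81 in males, and had an r of 0.54 with Insr. Kupffer cell markers (14 probe sets, 10 of 10 genes) ran between 7.66 and 9 in females and between 7.53 and 8.63 in males, with an r of 0.34 with Akt1. Pancreatic acinar markers (16 probe sets, 10 genes) ran between 6.86 and 7.15 in females and between 6.95 and 9.05 in males, where the median was 7.05, and skeletal muscle markers (9 probe sets, 7 genes) between 5.83 and 6.16 in females and between 5.87 and 6.91 in males. Their r with Insr was 0.34 and 0.33. Adipocyte markers (11 probe sets, 7 genes) ran between 7.11 and 7.99 in females and between 7.48 and 7.95 in males, with an r of 0.33 with log10 insulin and of -0.38 with Akt1. In whole liver, fewer cells of a type and less RNA per cell cannot be told apart.

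For each member the probe sets of other genes with the most similar pattern over the 60 mice were listed. Foxo1 was followed by Zbtb16 (a zinc finger transcription factor, r = 0.78), Il6ra (the receptor of interleukin 6, 0.65) and Lpin1 (a phosphatidate phosphatase, 0.6). Zbtb16 1419874_x_at ran from 5.51 through 6.84 to 7.81, and its r with Foxo1 was 0.74 without the 2 farthest mice and 0.76 after the first principal component. Foxo3 was followed by Timmdc1 (0.63), Mpzl2 (0.62) and Akap13 (0.57). Pik3ca was followed by Cdc37l1 (0.71), Ide (the insulin-degrading enzyme, 0.7) and Ankrd17 (0.68), and Pik3r1 by Ube2d3 (a ubiquitin-conjugating enzyme, 0.79), Serinc1 (0.78) and Kpna3 (an importin, 0.77). Ide 1423121_at ran from 7.53 through 7.9 to 8.39, and its r with Pik3ca was 0.62 after the first principal component.

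Akt1 was followed by Flot2 (flotillin 2, 0.8), B4galnt1 (0.79) and Grn (progranulin, 0.78), and Akt2 by Mtch1 (0.82), Ppp1r11 (0.81) and Mrpl10 (a mitochondrial ribosomal protein, 0.79). Insr was followed by Brca1 (0.74), Macroh2a3 (0.74) and Gnrhr (0.73), Irs1 by Klf12 (0.64), Gabpb2 (0.63) and Uqcrh (0.63), Irs2 by Scrib (0.71), Pigb (0.68) and Tada3 (0.66), and Grb10 by Apln (0.63), Npy6r (0.63) and Prph (0.62). The lowest r was -0.73 for Pik3r1 (Eef1akmt1), -0.71 for Insr (Fez2), -0.69 for both Pik3ca (Nr2f6) and Akt1 (Sh3d19), -0.67 for Irs2 (Pip4p2), -0.66 for both Akt2 (Fmo5) and Grb10 (Rps24), -0.63 for Irs1 (Gtf3c1), -0.6 for Foxo1 (Lrfn3) and -0.52 for Foxo3 (Dclk1). These were picked as the extremes of all probe sets, so their r values are descriptions, and the 2 probe sets of a pair mostly share an array.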

How the data were processed

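RNA from each of 60 livers was hybridised to a MOE430A and then a MOE430B array. The deposited log2 values were made by the authors with RMA, and the processing notes also name MAS5. Background correction and quantile normalization in RMA pull arrays to one distribution, so a change shared by most transcripts would be removed. Arrays have no read depth, and precision is limited by how many mice there were. The phenotypes and genotype letters were used as deposited. Control probe sets were left out (64 per array type). Members and gene lists were chosen with earlier results of these data known.

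Insulin and triglyceride entered as log10. Linear models (limma 3.58.1 in R 4.3.3) were fitted over 45037 probe sets with Benjamini-Hochberg adjustment at 0.05. Interval mapping used an EM algorithm at markers and 5 cM steps (genotyping error 0.0001), with Haley-Knott regression as an alternative. Genotype groups at a peak are the most likely genotypes. Permutation tests were two-sided with 100000 resamples. Genes could be named if they were members, the 3 highest or 1 lowest partner of each main probe set, or, of each list, the probe sets that passed or else the 2 with the largest absolute t. The text gives those that bear on a result. In tests on simulated data, 89.5% of 200 probe sets with a slope of 0.25 on log10 insulin were recovered among 45037. The noise was drawn independently for each probe set, and the changed ones were picked from all probe sets, whose median SD was 0.123. The median SD of the members was 0.178, so the share that would be recovered among them was not measured. In simulated scans, 56.0% of 200 traits with 20.0% of variance due to a locus reached LOD 3.4.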

Additional observations from a re-analysis of the deposited data

How the results depend on the processing

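No paired analysis was possible because the mouse numbers shared by the 2 array types link different probe sets of the same animal, and no comparison was made between array types. No member passed for insulin at 10 weeks, for the other phenotypes or for genotype at either marker under any alternative tried. The number of members that passed between females and males was 1, and became 0 with the first principal component, 0 with only probe sets at or above the median level (Pik3r1 1425515_at lies below it), 0 without the mice whose Xist level went against the record (chosen after seeing the data), 2 without mice 223, 474 and 608, and 6 without the mice that had an array apart. The cause was not tested. At LOD 3.4, 5 members passed, and 3 with the first principal component, while 0 did at LOD 5. Those 3 were Insr 1421380_at (3.71), which was not among the 5, Akt1 1416657_at (4.24, on chromosome 4 and not 8) and Foxo1 1416981_at (4.0). The scan with that component was run on the members alone, so it has no share over all probe sets. Foxo3 1450236_at stood at 3.14 with sex as a covariate. The t of Akt1 1442759_at on insulin was -0.08 in females alone without the Xist mismatches, opposite to its direction in all mice. Of the pairs, Foxo1 with Foxo3 had an adjusted p of 0.0983 on ranks. Insr with Grb10 and Pik3ca with Akt1 did not pass in both fits without the mice that had an array apart. Insr with Grb10 also did not without mice 223, 474 and 608. The sex of 5 mice is in doubt.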

Other observations

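Genes known to be induced by insulin were also set against glucose and liver fat. For glucose at 10 weeks 2 of 29 such probe sets passed, both lower with more glucose, and 24 had an unadjusted p under 0.05 (median t -3.26 against 0.21 for all probe sets). Fasn 1423828_at had an r of -0.57 with glucose (adjusted p = 0.0195, limma) and Gpam 1425834_a_at one of -0.53 (adjusted p = 0.0413). Neither passed allowing for sex (adjusted p = 0.79 and 0.976), allowing for the first principal component (0.0739 and 0.0907) or on ranks (0.193 for both). For liver triglyceride, Gpam 1419499_at had an r of 0.56 (adjusted p = 0.005) and Dbi 1433991_x_at, an acyl-CoA binding protein, one of 0.48 (adjusted p = 0.0471). Tat 1451557_at, a target of FOXO1 and of glucocorticoids, had an r of -0.52 (adjusted p = 0.0144). Cidea 1417956_at, a lipid droplet protein from the adipocyte list, ran from 6.68 through 9.7 to 11.29 and had an r of 0.78 (adjusted p = 2.99e-09). On ranks Cidea still passed (adjusted p = 0.0047), while Gpam (0.0837), Tat (0.195) and Dbi (0.353) did not, and without mice 223, 474 and 608 Dbi did not (0.0965).

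One hepatocyte gene outside the pathway passed for insulin at 10 weeks. Cps1 (1455540_at), the first enzyme of the urea cycle, ran from 11.71 through 12.39 to 12.98 and had a slope of -0.35 for 10-fold more insulin (r = -0.57, adjusted p = 0.0163). It did not pass without the 2 mice of lowest insulin (slope -0.31, adjusted p = 0.255), without mice 223, 474 and 608 (0.0532), without the 6 mice that had an array apart (0.0797), on ranks (0.574) or with insulin untransformed (0.423). With liver triglyceride Cps1 had an r of -0.47 (adjusted p = 0.0475), and 0.34 was its adjusted p on ranks.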
